A study of Homo sapiens with 3 samples.

Results

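The genes described here are FLT3, the 2 STAT5 genes and a set of genes known as transcriptional outputs of the FLT3-STAT5 pathway in FLT3-ITD leukemia. The 10 members, FLT3, STAT5A, STAT5B, PIM1, PIM2, PIM3, SOCS1, SOCS2, SOCS3 and CISH, were fixed by name and found by Entrez identifier in the count tables, where they are 10 of 25702 listed genes. All 10 had at least 10 counts in at least 1 library and were among the 12879 genes tested. Molm13, a human myeloid leukemia line, harbors FLT3-ITD, an in-frame duplication that keeps the receptor active without its ligand. Asynchronous Molm13 cells in RPMI medium with 10% FBS were exposed for 6 h to DMSO, the vehicle, or to 50 nM or 100 nM pyrvinium, an anthelmintic drug. Each condition is 1 library of 1 cell line, so no difference below has a replicate check.

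FLT3 is a receptor tyrosine kinase of early blood progenitors. In FLT3-ITD cells the active receptor leads to phosphorylation of STAT5A and STAT5B, transcription factors that enter the nucleus as dimers and raise a small set of genes. Among these are the PIM serine/threonine kinases, which support survival and translation, and CISH and the SOCS genes, whose proteins dampen cytokine receptor and JAK-STAT signaling in a feedback loop. The mRNA of such outputs is often read as a sign of STAT5 activity, but the counts here hold mRNA only and give no phosphorylation.

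The counts summed to between 22677038 and 24075123 per library. Counts were divided by library sizes scaled with edgeR's TMM method and are given as CPM (counts in 1e6 scaled counts). Levels of single genes are ranked against each other per kilobase of exon (RPKM). Sums and shares over several genes are of counts or CPM and are not corrected for gene length. The log2 fold changes have 0.5 counts added per library, and their 95% exact (Clopper-Pearson) intervals, like the exact Poisson intervals of the levels, cover counting error only. An adjusted p comes from an exact binomial test of the counts of a pair of libraries, with Benjamini-Hochberg adjustment over all 12879 genes, and compares those libraries, not the conditions. Of 11 markers of myeloid leukemia cells, 10 had at least 10 counts in a library, with a summed level of 1041 to 1099 CPM, while CD14 had at most 2 counts. Summed markers of T cells, B cells, megakaryocytes, epithelial cells and fibroblasts stayed at or below 1.12 CPM. HBB, an erythroid marker, had 16 counts in the 50 nM library and 0 in the others, and the erythroid markers KLF1 and ALAS2 were at 0 in all 3.

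FLT3 mRNA was higher at each dose, and none of the other 9 members was above DMSO past the adjusted p at either dose. FLT3 was the highest of the 10 members and the only one above DMSO at both doses beyond counting error. PIM1 and CISH were lower at 50 nM and close to DMSO at 100 nM, SOCS3 was lower at 100 nM on few counts, and STAT5A and STAT5B stayed within 10% of DMSO at both doses. At 2-fold, 0 of the 10 members were called between 100 nM and DMSO, against 2.2% of all genes tested (1.72% higher and 0.474% lower). The same count was 0 between 50 nM and DMSO, where 0.955% of all genes were called (0.699% higher and 0.256% lower). It was 0 between the doses, where 0.497% were called (0.202% higher and 0.295% lower). With the adjusted p alone, 3 of the 10 passed at 100 nM (FLT3 higher, PIM3 and SOCS3 lower), beside the 43.1% of all genes that passed (21.1% higher and 22% lower). At 50 nM 3 passed (FLT3 higher, PIM1 and CISH lower), against 28.2% of all genes (14.3% higher and 13.9% lower). In the step from 50 nM to 100 nM 3 passed, all higher (FLT3, PIM1 and CISH), against 16.9% of all genes (7.69% higher and 9.25% lower). The other 5, STAT5A, STAT5B, PIM2, SOCS1 and SOCS2, passed in none of the 3 comparisons. The median log2 fold change of the members was -0.12 at 100 nM and -0.17 at 50 nM, beside medians over all genes tested of -0.0023 and 0.00071. Both doses were set against the same DMSO library, so the values at the 2 doses are not independent.

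**Figure D1:**
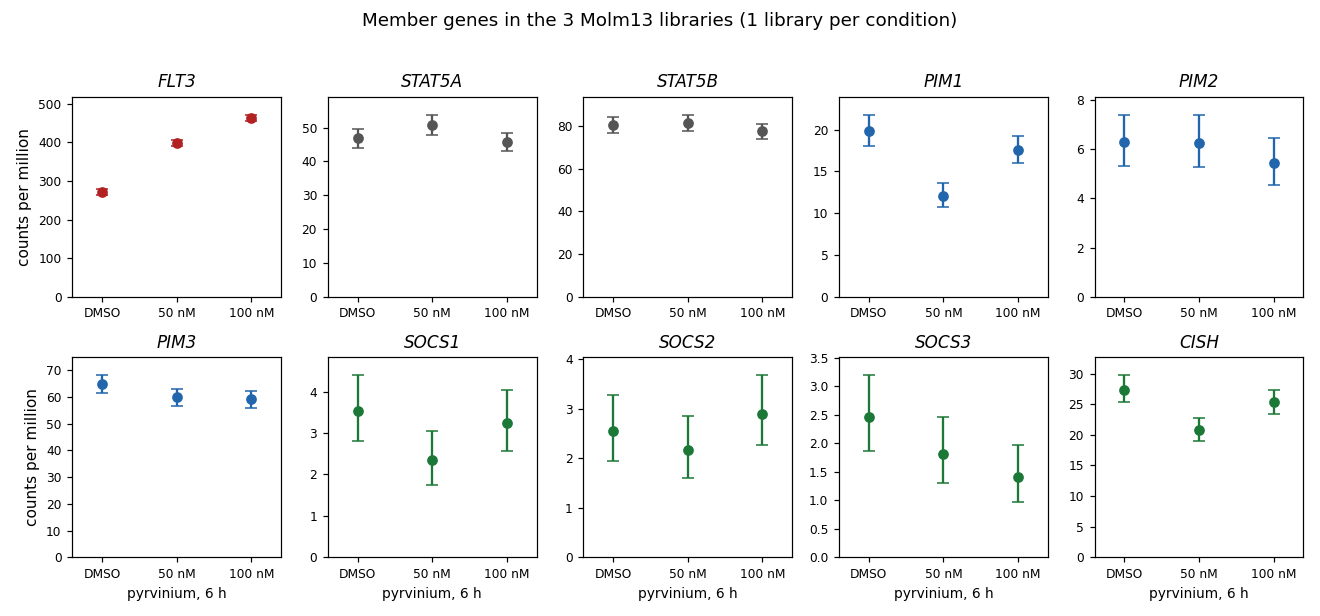
Level of each member in CPM (y axis, starting at 0, a different scale in each panel) in the DMSO, 50 nM and 100 nM libraries (x axis), with exact 95% Poisson intervals as bars and 1 library per point. FLT3 (red) steps up from 272 to 398 and 464 CPM, PIM1 (blue) and CISH (green) are lowest at 50 nM, and STAT5A and STAT5B (grey) are nearly level.

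FLT3 (Entrez 2322, chromosome 13 of hg19 from 28577411 to 28674729, minus strand, 24 exon intervals) was counted 6304 times with DMSO, 9012 times with 50 nM and 11181 times with 100 nM. These are 272, 398 and 464 CPM, and the 3 intervals do not overlap. The level was thus 1.46 times that of DMSO at 50 nM and 1.70 times at 100 nM. The log2 fold change was 0.55 at 50 nM (counting interval 0.50 to 0.60) and 0.77 at 100 nM (interval 0.73 to 0.81), which is below 2-fold. Between the doses it was 0.22 (interval 0.18 to 0.26). Of all genes tested, 484 (3.76%) were higher at each dose than at the one below and higher at 100 nM than in DMSO, with every step past the adjusted p, and FLT3 was the only member among them.

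The rise of FLT3 was large for a gene so highly counted. Of the 4986 genes that averaged 1000 counts or more over the libraries, 25 (0.501%, FLT3 included) had a log2 fold change at 100 nM as high as that of FLT3. Over all 12879 genes, many with few counts, the share was 4.69%. FLT3 made up 51.7% of the summed counts of the 10 members with DMSO, 62.6% with 50 nM and 66.1% with 100 nM. The other 9 members together had 254 CPM in DMSO and 238 CPM at each dose, a log2 fold change of -0.09 at 100 nM (interval -0.15 to -0.04). The counts per gene do not separate reads of the duplicated allele from those of any normal allele. In RNA from a whole culture, a shift in which cells are present and a change of mRNA per cell cannot be told apart.

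The size of the rise stands out from counting error, but its standing depends on how much replicate cultures vary, which was not measured. When replicates were assumed to vary with a biological coefficient of variation (BCV) of 0.1, edgeR's exact test gave FLT3 an adjusted p of 0.018 at 100 nM, while at 50 nM its adjusted p was 0.59. With an assumed 0.2 its adjusted p at 100 nM was 1. No other member passed under these assumed spreads.

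**Figure D2:**
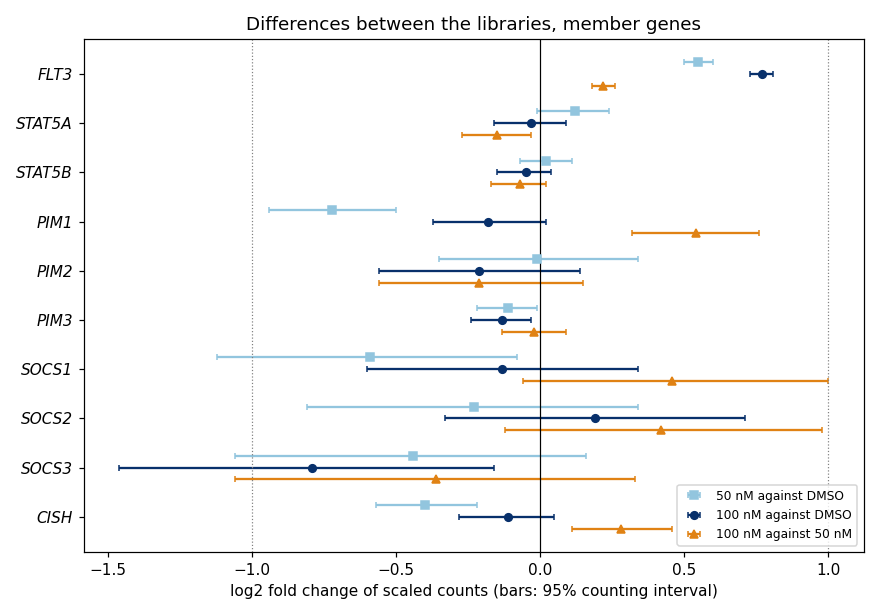
Log2 fold change of scaled counts (x axis) for each member (y axis) at 50 nM against DMSO (light squares), 100 nM against DMSO (dark circles) and 100 nM against 50 nM (orange triangles), with 95% counting intervals as bars and dotted lines at 2-fold. FLT3 lies right of 0 in all 3, PIM1 and CISH lie left of 0 at 50 nM and right of 0 between the doses, and the bars of SOCS1, SOCS2 and SOCS3 are wide.

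STAT5A and STAT5B are neighboring genes that encode closely related transcription factors, both phosphorylated downstream of FLT3-ITD. STAT5A (Entrez 6776, chromosome 17 from 40439565 to 40463961, plus strand) had 1086 counts in DMSO, 1149 at 50 nM and 1103 at 100 nM. STAT5B (Entrez 6777, chromosome 17 from 40351195 to 40428424, minus strand) had 1862, 1844 and 1868 counts in the same order. The 3 libraries overlapped in their level intervals for each gene. The log2 fold change at 100 nM was -0.03 for STAT5A, with an interval from -0.16 to 0.09. For STAT5B it was -0.05, with an interval from -0.15 to 0.04, so that neither counting interval reaches 0.2 in size. At 50 nM the values were 0.12 for STAT5A (interval -0.01 to 0.24) and 0.02 for STAT5B (interval -0.07 to 0.11). Between the doses STAT5A differed by -0.15 (interval -0.27 to -0.03, adjusted p = 0.074 in the exact binomial test).

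Per kilobase, STAT5B exceeded STAT5A by 1.45 times in DMSO, 1.36 times at 50 nM and 1.43 times at 100 nM. Part of each value rests on how reads common to both genes were counted, which is not stated. Of the 75-base windows of the joined STAT5A exons in hg19, 9.96% occurred letter for letter in the STAT5B exons, and 8.39% of those of STAT5B in STAT5A. In no other pair of members was such a window shared, and no exon of a member overlapped an exon of another listed gene on either strand.

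The PIM genes encode constitutively active serine/threonine kinases, of which PIM1 and PIM2 are described as STAT5 targets in FLT3-ITD cells. PIM1 (Entrez 5292, chromosome 6 from 37137922 to 37143204, plus strand) had 461 counts in DMSO, 274 at 50 nM and 424 at 100 nM, which are 19.9, 12.1 and 17.6 CPM. The 50 nM library stood below both others, whose intervals overlap. Its level at 50 nM was 0.609 times that of DMSO, which on the log2 scale is -0.72 (interval -0.94 to -0.50, adjusted p = 1.1e-09 in the exact binomial test). From 50 nM to 100 nM it was higher by 0.54 on the log2 scale (interval 0.32 to 0.76), and 100 nM against DMSO gave -0.18 (interval -0.37 to 0.02).

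PIM3 was the most abundant PIM mRNA in these cells, and PIM2 the least. PIM3 (Entrez 415116, chromosome 22 from 50354143 to 50357720, plus strand) had 1499 counts with DMSO, 1354 with 50 nM and 1424 with 100 nM. On the log2 scale it differed by -0.11 at 50 nM (interval -0.22 to -0.01) and -0.13 at 100 nM (interval -0.24 to -0.03). The value at 100 nM passed the adjusted p (0.036 in the exact binomial test), for a level 0.913 times that of DMSO. PIM2 (Entrez 11040, chromosome X from 48770459 to 48776413, minus strand) had 146, 142 and 131 counts, with overlapping intervals and a log2 fold change at 100 nM of -0.21 (interval -0.56 to 0.14). Summed over the 3 PIM genes, the level was 90.9 CPM in DMSO, 78.2 at 50 nM and 82.1 at 100 nM. Per kilobase PIM3 exceeded PIM1 by 3.70 times in DMSO, 5.63 times at 50 nM and 3.82 times at 100 nM.

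CISH encodes an SH2-domain protein that binds activated cytokine receptors and limits STAT5 signaling, and is itself a classical STAT5 target. CISH (Entrez 1154, chromosome 3 from 50643885 to 50649262, minus strand) had 636 counts in DMSO, 471 at 50 nM and 611 at 100 nM, or 27.4, 20.8 and 25.3 CPM. As for PIM1, the 50 nM library lay below both others and those overlapped. The level at 50 nM was 0.759 times that of DMSO, on the log2 scale -0.40 (interval -0.57 to -0.22, adjusted p = 5.8e-05 in the exact binomial test). From 50 nM to 100 nM the change was 0.28 (interval 0.11 to 0.46, adjusted p = 0.012 in the exact binomial test), and at 100 nM against DMSO it was -0.11 (interval -0.28 to 0.05).

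The CISH promoter is shown because it holds the letters that STAT dimers bind and CISH was lower at 50 nM. The letters TTCNNNGAA, which read the same on both strands, were searched in RefSeq promoters (table of GRCh38.p14), each from 250 bases before to 50 bases after a gene's start. CISH held 4 such cores. The stretch below was matched letter for letter to GRCh37, where it lies at chr3:50649299-50649455 on the minus strand, upstream of the CISH exons of the count table. The cores are in capitals, and they begin 241, 230, 129 and 112 bases before the start.
CISH promoter: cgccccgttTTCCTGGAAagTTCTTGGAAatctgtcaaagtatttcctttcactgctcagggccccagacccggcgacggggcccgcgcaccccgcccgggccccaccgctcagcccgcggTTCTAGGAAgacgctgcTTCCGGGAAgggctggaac

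Of the 35116 promoters in that table, 2689 (7.66%) held at least 1 core, 160 (0.456%) at least 2 and 17 (0.0484%) at least 3. None of the other promoters listed for the members, those of FLT3, STAT5A, STAT5B, PIM1, PIM2, PIM3, SOCS1 and SOCS3, held a core in this window. PIM1, lower at 50 nM by more than CISH, thus lacks these letters there. This describes the window only, as a match describes letters and not a site in use. The windows follow RefSeq starts. For PIM3 the bases before that start (50354170 to 50354419 in GRCh37) lie inside the counted gene, which begins at 50354143. SOCS3, on the minus strand, begins at 76356158 in the counts. Its windows before the RefSeq starts, 76355749 to 76355998 and 76357007 to 76357256, lie inside the gene and further upstream. The bases directly upstream of the counted PIM3 and SOCS3 genes were thus not tested for a core.

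The 3 SOCS genes encode proteins of the same family as CISH, and all were near the lower end of what was counted. SOCS1 (Entrez 8651, chromosome 16 from 11348274 to 11350039, minus strand), which encodes a direct inhibitor of JAK kinases, had 82 counts in DMSO, 53 at 50 nM and 78 at 100 nM. The order of its libraries was that of PIM1 and CISH, but the intervals of the levels overlapped. At 50 nM the log2 fold change of SOCS1 came to -0.59 (interval -1.12 to -0.08, adjusted p = 0.073 in the exact binomial test). SOCS2 (Entrez 8835, chromosome 12 from 93963598 to 93969978, plus strand), a regulator best known from growth hormone signaling, had 59, 49 and 70 counts and log2 fold changes of -0.23 at 50 nM and 0.19 at 100 nM. At 100 nM the counting interval of SOCS2 ran from -0.33 to 0.71, so a change of over 1.5-fold was not excluded at this depth.

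SOCS3 (Entrez 9021, chromosome 17 from 76352859 to 76356158, minus strand), a feedback inhibitor of cytokine receptors that signal through STAT3, had 57 counts in DMSO, 41 at 50 nM and 34 at 100 nM. Its level at 100 nM was 0.577 times that of DMSO. The log2 fold change was -0.79 with a wide interval, from -1.46 to -0.16 (adjusted p = 0.031 in the exact binomial test). At 50 nM it was -0.44 (interval -1.06 to 0.16). The size of the SOCS3 value at 100 nM is close to the 0.77 of FLT3, which lies within the range of sizes its interval spans, and with 5 counts added in place of 0.5 SOCS3 is at -0.73 and FLT3 still at 0.77. SOCS3 had the fewest counts of the members. Summed over CISH and the 3 SOCS genes, the level was 36.0 CPM in DMSO, 27.1 at 50 nM and 32.9 at 100 nM. The log2 fold change of that sum was -0.41 at 50 nM (interval -0.56 to -0.26) and -0.13 at 100 nM (interval -0.27 to 0.01), and CISH gave most of its counts.

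PIM1 and CISH were 2 of only 62 genes (0.481% of all tested) that were lower at 50 nM than in DMSO and higher at 100 nM than at 50 nM, with both steps past the adjusted p. Both steps share the 50 nM library, so this pattern describes that 1 library against the others. With no test, 4 of the 10 members (PIM1, SOCS1, SOCS2 and CISH) had their lowest CPM at 50 nM, beside 21.8% of all genes tested. FLT3 was higher in the same 50 nM library. The 16 counts of HBB were in that library too, and their part in these values was not tested. This pattern was chosen after the values were seen.

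**Figure D3:**
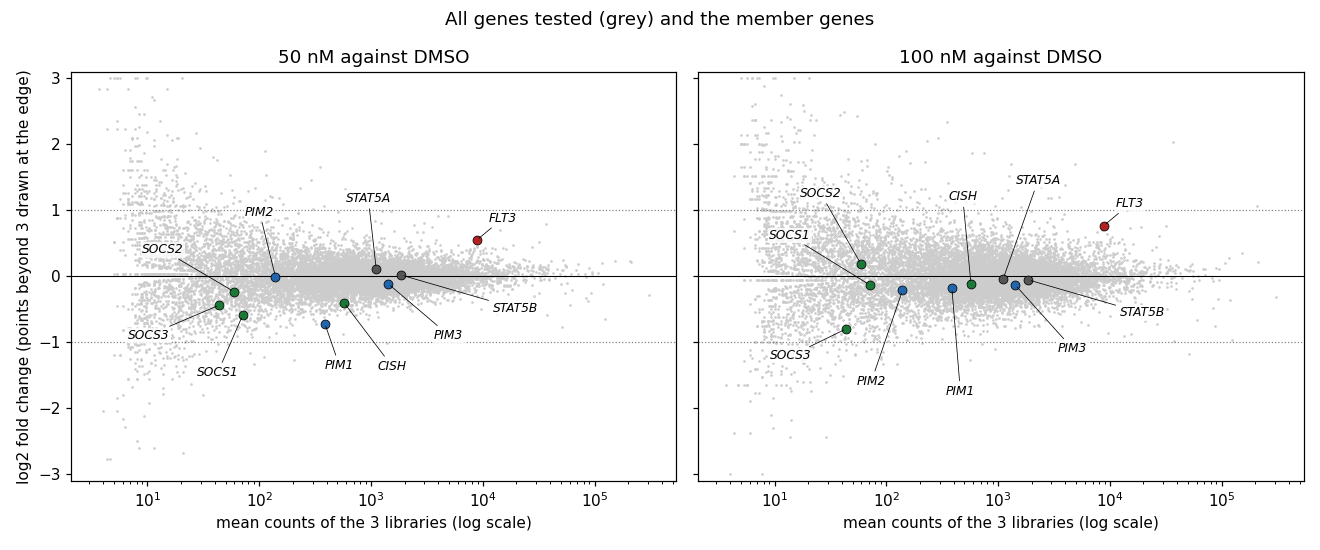
Log2 fold change (y axis) against the mean counts of the 3 libraries (x axis, log scale) for the 12879 genes tested (grey) and the 10 members (colored), at 50 nM (left) and 100 nM (right) against DMSO, with dotted lines at 2-fold. FLT3 lies above the bulk of equally counted genes in both panels, PIM1 lies at -0.72 at 50 nM and -0.18 at 100 nM, and the SOCS genes lie where few counts spread all genes widely.

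In the level per kilobase, FLT3 led in each library, at 70.8 RPKM in DMSO, 104 at 50 nM and 121 at 100 nM. It stood above 91.0% of the genes tested in DMSO and above 95.6% at 100 nM. PIM3 (27.2 RPKM in DMSO) and STAT5B (15.8) followed in every library, each apart from its neighbors in order. CISH (12.1) and STAT5A (10.9) came next in DMSO with overlapping intervals, while at 50 nM CISH (9.18) was below STAT5A (11.8) without overlap. PIM1 was at 7.34 RPKM in DMSO and above 45.0% of the genes tested. SOCS1 (2.91) and PIM2 (2.88) did not differ beyond their intervals in any library. SOCS2 (1.15) and SOCS3 (0.900) were last and overlapped in DMSO and at 50 nM, but not at 100 nM, where SOCS2 was at 1.31 and SOCS3 at 0.516 RPKM. The FLT3 level was 4.49 times that of STAT5B in DMSO and 7.94 times at 100 nM.

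Around FLT3, genes of the ligand, adaptors and proximal signaling went both ways. Of 20 listed, 19 were tested, and at 100 nM 6 were higher and 5 lower past the adjusted p, beside 21.1% and 22% of all genes. The median log2 fold change of this list was 0.04. The counts of the lists that follow are to be read against the same 21.1% higher and 22% lower. GAB2, a docking protein that links receptors to PI3K and SHP2, had 2274 counts with DMSO, 2820 with 50 nM and 3499 with 100 nM, a difference of 0.56 on the log2 scale at 100 nM (interval 0.49 to 0.64). DOK2, an adaptor that restrains receptor signaling in myeloid cells, had 1631, 1202 and 1187 counts in that order, which on the log2 scale is -0.52 at 100 nM (interval -0.62 to -0.41).

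Among the JAK kinases and other STAT genes, 7 of 9 were tested, 3 were higher and 2 lower at 100 nM past the adjusted p, and the median was 0.07. STAT2, which acts in the type I interferon response, had 760, 812 and 1068 counts, which on the log2 scale is 0.43 (interval 0.30 to 0.57). STAT6, the transcription factor of interleukin-4 signaling, had 5870, 5193 and 4870 counts, or -0.33 (interval -0.38 to -0.27). Among 11 other inhibitors of JAK-STAT signaling, 10 were tested, with 3 higher and 4 lower past the adjusted p and a median of -0.10. SOCS7 had 150, 167 and 224 counts, a log2 value of 0.52 (interval 0.22 to 0.83). PIAS3, an inhibitor of STAT3, had 356, 253 and 282 counts, a log2 value of -0.39 (interval -0.62 to -0.16).

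Other reported STAT5 targets were split as well. Of 13 listed, 12 were tested, 3 were higher and 3 lower at 100 nM past the adjusted p, and the median log2 fold change was -0.02. The 3 higher ones, MYC, BCL2 and CDKN1A, were above DMSO past the adjusted p at 50 nM too. The 3 lower ones, CCND1, CCND3 and MCL1, were likewise below DMSO past the adjusted p at 50 nM. Both doses were set against the same DMSO library, and at 50 nM 14.3% of all genes passed as higher and 13.9% as lower. MYC, a transcription factor that drives growth, had 21175, 28215 and 33596 counts, on the log2 scale 0.61 at 100 nM (interval 0.58 to 0.63). CCND1, the gene of cyclin D1, had 91, 52 and 55 counts, on the log2 scale -0.78 (interval -1.29 to -0.28). The genes reported as lowered by FLT3-ITD numbered 4, of which 2 (SPI1 and CEBPA) were lower and 0 higher past the adjusted p (22% and 21.1% of all genes), with a median of -0.24. That median lies between RGS2 and CEBPE, neither past the adjusted p. CEBPE had only 15, 14 and 13 counts (interval -1.45 to 0.91 at 100 nM). SPI1, the gene of the myeloid factor PU.1, had 2981, 2667 and 2491 counts, on the log2 scale -0.32 at 100 nM (interval -0.39 to -0.24). RGS2, a regulator of G protein signaling, had 61, 62 and 54 counts and a log2 value of -0.23 (interval -0.79 to 0.32).

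Of 13 PIM kinase substrates, 11 were tested, with 4 higher and 3 lower at 100 nM past the adjusted p and a median of 0.02. CDC25A, a phosphatase that drives entry into S phase, had 2327, 1844 and 1495 counts, on the log2 scale -0.70 (interval -0.79 to -0.60). CDKN1A, the gene of the cell cycle inhibitor p21, which is also in the list of STAT5 targets, had 1809, 2085 and 2557 counts, on the log2 scale 0.44 (interval 0.35 to 0.53). Of 12 receptors that signal through JAK and STAT5, 9 were tested, with 2 higher and 3 lower past the adjusted p and a median of -0.29. That median is the value of IL2RB, which had only 13, 13 and 11 counts (interval -1.60 to 0.98). The 2 higher were IL3RA (0.43) and CSF2RA (0.27), and the 3 lower were CSF2RB, EPOR and IL7R. CSF2RB, the chain shared by the receptors of interleukin-3, interleukin-5 and GM-CSF, had 775, 508 and 526 counts, with log2 values of -0.57 at 50 nM (interval -0.74 to -0.41) and -0.62 at 100 nM (interval -0.78 to -0.45). IL7R, the interleukin-7 receptor, had 186, 138 and 126 counts, on the log2 scale -0.62 at 100 nM (interval -0.96 to -0.28).

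The genes whose course over the 3 libraries was most like that of FLT3, by the distance of centered log2 CPM among 9979 genes that averaged 100 counts or more, were NEK8, CPQ, ITGAL, CTSG and TKFC. Their log2 fold changes were 0.52 to 0.57 at 50 nM and 0.77 to 0.81 at 100 nM. ITGAL, the integrin alpha chain of LFA-1, had 22811, 31895 and 40424 counts, and CTSG, the gene of the granule protease cathepsin G, had 848, 1193 and 1522. For SOCS3, which had the largest difference of a member at 100 nM with 0.5 counts added but not with 5, the nearest were CRYZ, FEN1, MT1X, LRRC42 and DNAJA1, with log2 fold changes of -0.74 to -0.86 at 100 nM. A likeness over 3 libraries is a description and rests on few points.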

How the data were processed

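RNA of Molm13 cells was sequenced in 3 libraries, 1 per condition, grouped by the sample titles. The authors built strand-specific mRNA libraries, mapped the 75-base paired reads with Rsubread (hg19), and what they deposited are raw counts for each Entrez gene, not normalized. Strand use in counting and the treatment of reads common to similar genes are not given in the sources used here. A deposited table of the authors' EBSeq comparisons (posterior probabilities, fold changes and condition means) was not used. Libraries were scaled with TMM (edgeR 4.0.16, R 4.3.3), genes with at least 10 counts in a library were kept, and each pair was tested by the exact binomial test (two-sided, scipy 1.17.1) at an adjusted p of at most 0.05, with or without 2-fold. The procedure was tested on simulated counts that held counting error only, with changes past 2-fold in well-counted genes. That test does not address changes below 2-fold, changes in genes with few counts, or replicate spread. A fold depends on the counts added where counts are few. For scale, 3 counts, a reference floor not applied to any value, are 0.125 to 0.132 CPM of total counts.

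Symbols came from the RefSeq gene table by Entrez identifier, and promoters from the RefSeq table of GRCh38.p14, which had entries for 9 of the 10 members. The named genes are the 10 members, the 2 largest differences at 100 nM in each of 7 pathway lists among genes with at least 50 counts, and the 5 genes most like FLT3 and like the member with the largest difference with 0.5 counts added. The members, lists and rules were chosen with earlier results of these data known, and the lists were written from general knowledge. Alternatives were scaling by total counts, by the size factors of DESeq2 1.42.0 or by TMM after removal of mitochondrially encoded genes, other count filters, 1.5-fold, 5 counts added, an assumed biological coefficient of variation (0.1, 0.2 or 0.4) in the exact test of edgeR, and a linear dose trend in its quasi-likelihood test, with 1 residual degree of freedom.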

Additional observations from a re-analysis of the deposited data

How the results depend on the processing

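The number of members past each threshold stayed as reported under total counts, DESeq2 size factors, TMM after removal of mitochondrially encoded genes and both other count filters. The 120 recomputed fold changes of members under 3 scalings and with 5 counts added kept their direction and their side of the adjusted p of 0.05, and moved by at most 0.06 on the log2 scale. The added counts do not enter the binomial test, so they could not change the side of the adjusted p. The 3 scalings differed from TMM by at most 0.005 on the log2 scale, so they left little room for a change. With 1.5-fold in place of 2-fold, 2 members were called at 100 nM (FLT3 and SOCS3), beside 6.71% of all genes tested. At 50 nM 1 was called (PIM1), beside 2.58% of all genes, and between the doses 0, beside 1.11%. With assumed biological coefficients of variation of 0.1, 0.2 and 0.4, which add spread by construction, the members past the adjusted p fell from 3 to 1 (FLT3), 0 and 0 at 100 nM, from 3 to 0, 0 and 0 at 50 nM, and from 3 to 0, 0 and 0 between the doses. At 0.1, 2 members had an unadjusted p of at most 0.05 in each comparison with DMSO and 1 between the doses. Of all 12879 genes tested, 1453 had such a p at 100 nM, 587 at 50 nM and 268 between the doses. At 0.2 no member had, beside 312, 131 and 93 of all genes in that order. Over all genes, 5550 past the adjusted p at 100 nM became 244, 12 and 0, 3632 at 50 nM became 36, 0 and 0, and 2182 between the doses became 16, 4 and 0. Those also past 2-fold became 138, 12 and 0 of 283, 27, 0 and 0 of 123, and 15, 4 and 0 of 64. At 0.4, 46, 18 and 27 genes had an unadjusted p of at most 0.05. The dose trend left 1 member (FLT3) and 2633 genes. With at least 50 counts required, the 283, 123 and 64 genes called at 2-fold became 146, 45 and 14. With 1.5-fold they became 864, 332 and 143. No paired analysis was possible because each condition had 1 library.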

Other observations

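The following values were chosen after they were seen and are given as description. PIM1, among the 9979 genes that averaged 100 counts or more, was the second nearest to SOCS1 in its course over the 3 libraries, behind SLC2A13, a myo-inositol transporter gene. SOCS1 itself averaged fewer counts than that limit (82, 53 and 78) and passed the adjusted p in no comparison, so this order rests on few counts. SLC2A13 had 129 counts in DMSO, 87 at 50 nM and 131 at 100 nM. The nearest to PIM1 were SANBR (133, 79 and 119 counts) and CDC42EP4 (122, 76 and 106 counts). For CISH the 5 nearest included AMPD3, an AMP deaminase gene, and FOXO4, a FOXO transcription factor gene, with log2 fold changes at 50 nM of -0.44 and -0.40. FOXO4 had 441, 327 and 413 counts.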
